A study of Mus musculus with 9 samples.

Results

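Clusters of EWS/ATF1 peaks that were called in sarcoma MEF and held no G1297 peak are described here. They were chosen by peak positions in both deposited lists. Neighbouring MEF peaks with an edge-to-edge gap of at most 12.5 kb were joined, groups of at least 3 peaks were kept, and every group was left out whose span, extended by 5 kb on each side, overlapped a G1297 peak. Of 2137 MEF clusters, 1110 met this rule, which is 51.9% of them, and they held 3946 of the 27130 MEF peaks (14.5%). Because the clusters were selected on the absence of G1297 peaks, that absence is part of their definition and is not a finding, and the 51.9% is given only as the share that the rule kept.

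The study mapped HA-tagged EWS/ATF1 by ChIP-Seq after doxycycline (Dox) induction in mouse cells of different type. G1297 is a sarcoma cell line that arose under EWS/ATF1 expression, and 2 ChIP libraries of it are labelled. The MEFs (Sarcoma iPSCs #3-derived MEF, called sarcoma MEF) are embryonic fibroblasts from chimeric embryos made with an iPSC clone of such sarcoma cells, and 1 ChIP library of them is labelled. Both were treated with 0.2 µg/ml Dox for 12 h, and the fusion gene was under a tetracycline operator with a reverse transactivator (M2rtTA) at Rosa26. The MEFs were kept by puromycin resistance, which the iPSC-derived cells carry, so that they come from 1 clone, and G1297 is 1 line. Each cell type is represented by 1 list without values per replicate and without read counts. Its depth is therefore unknown, differences were not tested, and values are set side by side as a description of the lists.

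EWS/ATF1 joins the activating amino-terminal part of EWS to the basic leucine zipper of ATF1, which binds the cyclic AMP response element. Sites of transcription factor binding often lie close together on a chromosome, and dense groups of active elements are called super-enhancers when they also carry strong marks of activity. Cells of different type, such as fibroblasts and sarcoma cells, differ in the regions of chromatin that are accessible to such factors. No chromatin mark, expression value or sequence entered the account of the clusters. The coordinates are of the mouse build mm9, as 3 of the clusters ended past their chromosome's end in GRCm38, and the annotation at hand was GRCm38. Genes, promoters and motifs in the clusters were therefore not analysed here.

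The score of a peak rises with the significance of its enrichment over input, and the authors' caller derives it from the logarithm of a P value. The MEF list had a median score of 314.8, a lowest score of 90.01 and 1062 peaks at exactly 3100, with 75 above it. Because so many peaks share this value, the order of peaks at or above it is not read as a difference in height, and summed scores and shares that include such a peak rest on the value as listed. In the 13 clusters without a G1297 peak that held at least 2 such peaks, the peak called the top one is that of highest listed score, or the first of equals. A score of 1787 marked the lower bound of the highest-scoring 10% of the list, which by definition held 2713 of 27130 peaks. A score of 3100 or more was given to 1137 of them, or 4.19%.

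Most of the clusters without a G1297 peak were small. There were 733 with 3 peaks (66.0%), 228 with 4, 95 with 5, 34 with 6 and 20 with at least 7, and the highest number was 11. Their median span was 13.9 kb, from 2.36 kb to 62.5 kb, and 56 of them (5.05%) were longer than 30 kb. Together they spanned 16.6 Mb, of which their peaks covered 4.26 Mb. The 1027 MEF clusters with a G1297 peak had a median of 4 peaks and of 16.4 kb, with 73 holding at least 7 peaks and 123 longer than 30 kb. A longer cluster offers more room for a G1297 peak, so that length and the rule are not independent. The share of clusters without a G1297 peak was 59.9% among those of 3 peaks, 46.2% among those of 4, 39.6% among those of 5, 39.1% among those of 6 and 21.5% among those of at least 7.

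**Figure D1:**
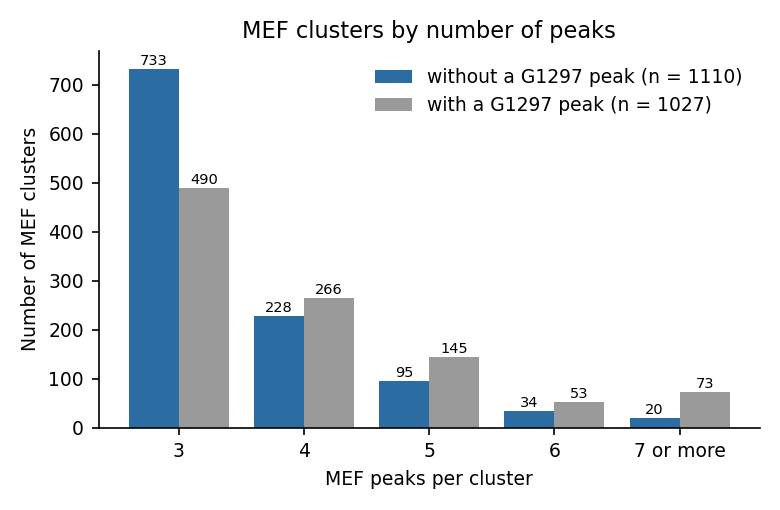
Number of MEF clusters (y axis) by the number of MEF peaks they hold (x axis), for the 1110 clusters without (blue) and the 1027 clusters with (grey) a G1297 peak. Bars without a G1297 peak are higher at 3 peaks (733 against 490) and lower in every class from 4 peaks up.

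Of the 2 clusters with 11 peaks, the most of any member, 1 had the highest summed score of all members. It lay at chr14:119108470-119170922, spanned 62.5 kb and held 11 peaks with a summed score of 13969. Its first and second peaks, at chr14:119108470-119109995 and chr14:119112126-119113630, both scored 3100. After a weak peak of 162.1 and a stretch of 12467 bp without a peak, close to the longest gap that was joined, followed 5 peaks of 890.0, 519.9, 906.0, 1088 and 791.1. The ninth peak, at chr14:119162897-119166335, was 3439 bp wide and again scored 3100, before closing peaks of 145.4 and 166.6. High peaks thus stood near both ends of this cluster with peaks of intermediate score between them, and the top peak held 22.2% of the summed score. The nearest G1297 peak was 142.4 kb away, and 3 G1297 peaks lay within 1 Mb.

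A cluster at chr6:52109094-52154743 also held 11 peaks, in 45.7 kb, but none of them was in the top 10% of the list. Its scores ran from 120.0 to 834.7 with a median of 311.9, close to the median of all MEF peaks. From first to last they were 738.6, 311.9, 120.0, 211.5, 146.4, 181.2, 148.1, 834.7, 461.5, 643.5 and 492.3. The weaker peaks filled its middle, and the stronger ones stood at either side. Its top peak, at chr6:52146309-52147474, held 19.5% of the summed score, the lowest such share among the 1110 clusters. The summed score was 4290, less than that of the next cluster, which had 10 peaks. The nearest G1297 peak lay 108.4 kb away, and 10 lay within 1 Mb.

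The cluster of 10 peaks lay at chr2:102763540-102799365 with a summed score of 6728. Its ninth peak, at chr2:102795759-102797883, scored 3100, its second 1004, and the remaining 8 scored between 90.5 and 623.4. The lowest of these was barely above the threshold of the list. A cluster of 9 peaks at chr5:74534968-74579709 carried its high scores near its start, where peaks of 2602 and 3100 lay at 3.55 and 9.12 kb from its start, and no other peak exceeded 465.5. At chr11:33559738-33601303, a cluster of 8 peaks opened with its top peak of 3100, followed by one of 1297.25, and its last peaks scored 142.1 and 151.1. This cluster was the closest to G1297 binding among the 10 with the most peaks, as a G1297 peak lay 12.8 kb from its edge.

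The other 5 of the 10 clusters with the most peaks, where ties in peak number were ordered by summed score, varied in profile. The cluster at chr13:52091136-52126749 had 1 peak of 3100 in seventh place, which held 55.2% of its summed score, beside 7 peaks of at most 691.5. At chr9:83439603-83469988, 8 peaks reached 1545 at most, with 2 neighbouring peaks of 1372 and 1545 in the middle of the cluster. At chr1:188386189-188414208, the fifth of 7 peaks scored 3100 and the sixth 1964, and the nearest G1297 peak was 603.5 kb away. The cluster at chr16:87539872-87586620 began with a peak of 2368 and had further peaks of 1309 and 1334 at 13.4 and 45.1 kb from its start. The cluster at chr13:35593667-35629574 had the most even profile of these, with 5 of its 7 peaks between 769.8 and 1514 and the lowest at 279.7.

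**Figure D2:**
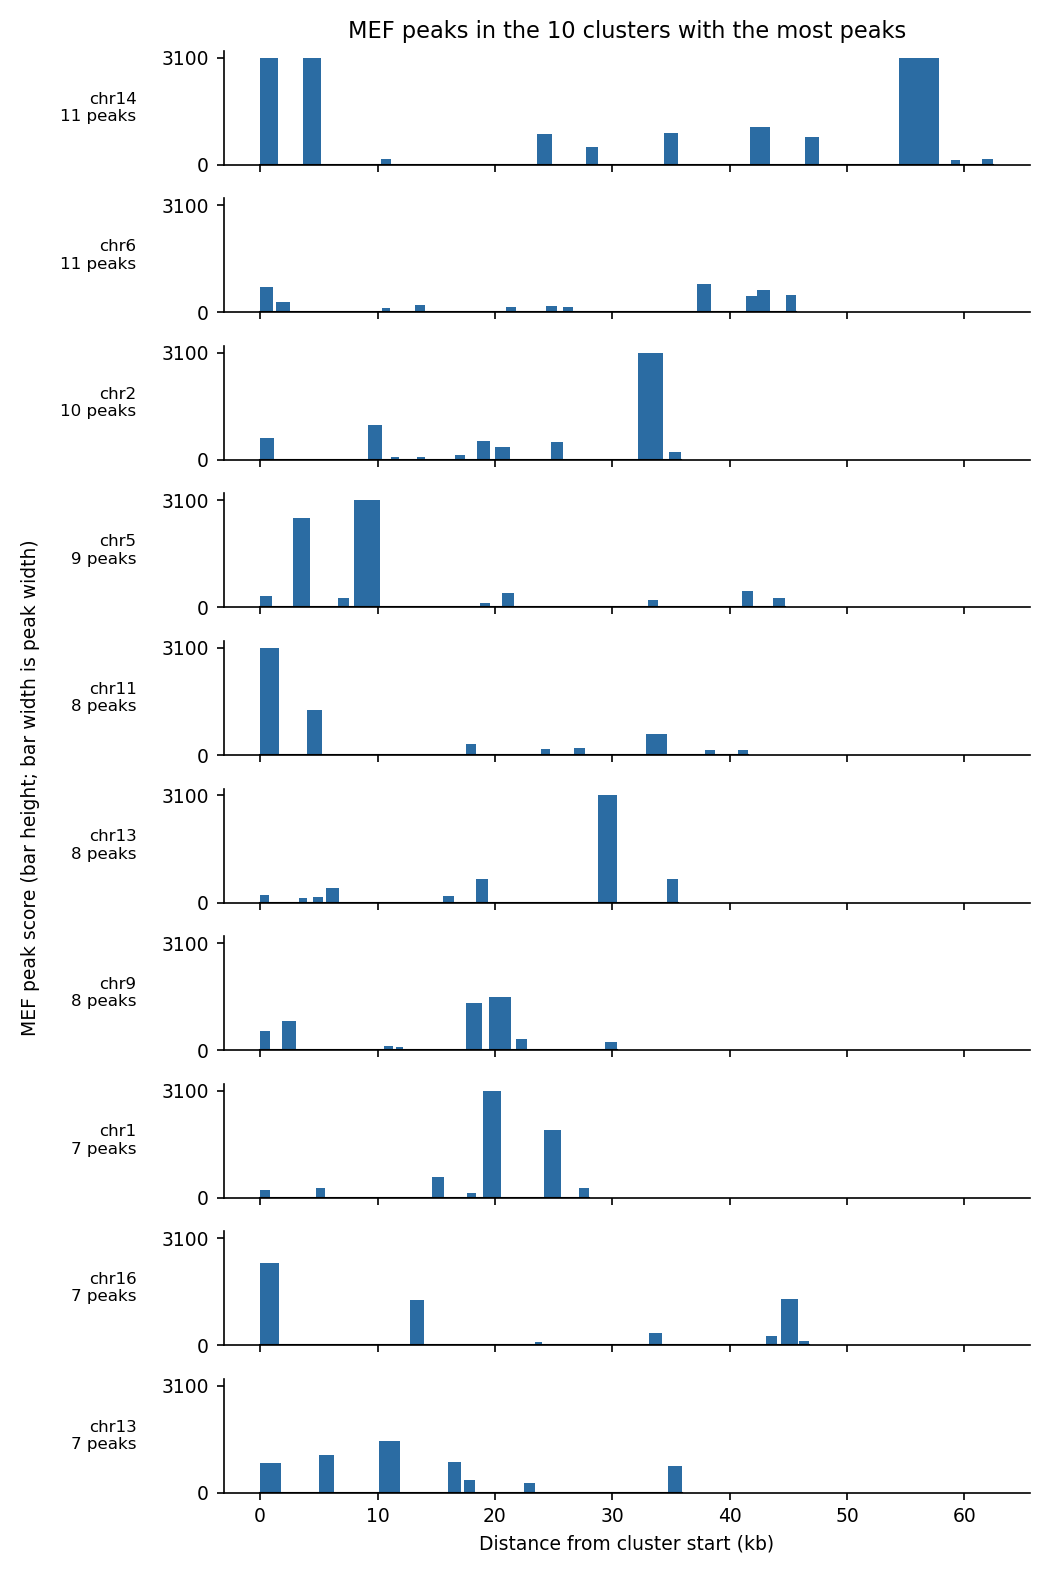
Peaks of the 10 clusters with the most peaks, drawn to scale by distance from the cluster start in kb (x axis), with bar height giving the MEF peak score (y axis, each panel from 0) and bar width the peak width. In 6 of the 10 clusters a peak reaches 3100, and in the second panel no peak exceeds 834.7.

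Ordered by summed score, the leading clusters were mostly shorter, and 2 of the 10 were also among the 10 with the most peaks. After the cluster on chromosome 14 came chr7:121342778-121359377, where 6 peaks in 16.6 kb summed to 10332. Its scores were 698.0, 1581, 3100, 1037, 830.7 and 3085, of which 2 were in the top 10% of the list, and the peaks covered 51.7% of the span. The cluster at chr5:106221393-106261689 summed to 9242 over 6 peaks and had peaks of 3100 at 7.52 and 39.1 kb from its start. A cluster of 4 peaks at chr6:7504326-7529082 summed to 8686, and each of its peaks scored at least 1117. At chr15:97861354-97887885, 3 of 4 peaks were in the top 10% of the list, with scores of 1957, 3100 and 3100. At chr17:31820696-31833485, 4 of 5 peaks lay between 1701 and 2787 within 12.8 kb. The next clusters, at chr11:7133048-7146529, chr8:118416347-118450875 and chr1:151682023-151698093, each held 2 peaks of 3100 or more and lay between 415.8 and 541.5 kb from the nearest G1297 peak.

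The top peak scored 3100 or more in 117 of the 1110 clusters, exactly 3100 in 104 of them and above it in 13. The 10 with the highest listed values, which are not taken as higher than those at 3100, varied in what stood beside that peak. The listed value was 3207 at chr5:91192377-91193894, the last peak of the cluster chr5:91162504-91193894. The other 3 peaks there scored at most 617.5. On the same chromosome, chr5:91304351-91338432 began with a peak of 3159 and also held peaks of 1933 and 1131. At chr4:70269197-70286766, chr4:148423031-148437277 and chr13:29835237-29849265, the top peak scored 3170, 3168 and 3144 and held 91.3%, 86.8% and 90.7% of the summed score. Their remaining peaks scored between 93.1 and 369.7. By contrast, the cluster at chr13:70927535-70941070, with a top peak of 3202, also held peaks of 2137 and 1349. Its top peak lay between the peak of 2137 and a weak peak of 126.8. At chr4:104930488-104946598 a top peak of 3131 was followed by another of 3100. At chr7:53026365-53040912 the top peak scored 3176 and the next 1514, and at chr8:118416347-118450875 the first peak of 3184 was followed by one of 3100.

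Across all 1110 clusters, the top peak held a median of 53.6% of the summed score, from 19.5% to 92.4%. It held at least 50% in 647 clusters (58.3%), at least 75% in 149 (13.4%) and under 40% in 150 (13.5%), against 61.3%, 15.1% and 14.4% of the clusters with a G1297 peak. These shares have a lower bound set by the number of peaks. Clusters at or near the ends of this range, named after their values were seen, differed in profile. At chr16:87305645-87309820 a peak of 3100 stood between peaks of 127.4 and 129.3, and at chr19:37336533-37365964 the highest of 6 peaks scored 523.6, the next 511.3 and the one after 506.9. The member whose weakest peak was highest, also named after its values were seen, lay at chr17:64148053-64166193, where 3 peaks scored 1650, 2467 and 3100. The median score was 997.1 for the highest peak of a cluster, 385.5 for the second, 181.7 for the third and 159.5 for the fourth in the 377 clusters that had one. Peak width fell in the same order, with medians of 1292, 1021, 833 and 806 bp. The MEF clusters with a G1297 peak had higher median scores at each rank (2101, 698.6, 276.7 and 209.8) and a median share of 54.7% in the top peak. At equal peak number their share was higher, with 61.9% against 57.4% in clusters of 3 peaks, 52.8% against 47.8% in those of 4 and 48.7% against 46.5% in those of 5. These differences were not tested.

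The place of the top peak was counted in the clusters with at most 1 peak of 3100 or more, which had no ties. Among 728 such clusters of 3 peaks it was evenly spread, with 236 first, 250 in the middle and 242 last. In those of at least 4 peaks it lay at an edge in 152 of 369 (41.2%), where the edges made up a mean of 44.8% of the positions in a cluster. In such clusters with a G1297 peak it lay at an edge in 224 of 503 (44.5%), against a mean of 42.7% of the positions. Neighbouring peaks were separated by a median of 3381 bp over 2836 gaps, against 3690 bp over 3138 gaps in the clusters with a G1297 peak. Gaps under 1000 bp made up 21.2% and 21.3%, respectively. At least 1 such gap was present in 507 of the 1110 clusters (45.7%) and in 510 of the 1027 with a G1297 peak (49.7%). Whether peaks this close were parts of 1 broader region was not tested. When MEF peaks within 1000 bp of each other were merged before joining, 794 clusters without a G1297 peak were counted.

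Some clusters were compact, and those named next were chosen after their values were seen. At chr13:58447483-58451463, 3 peaks with gaps of 7 and 17 bp covered 99.4% of a span of 3981 bp. At chrX:166428691-166446995, the top peak was 10078 bp wide, the widest top peak of any member, and the 3 peaks covered 93.4% of 18.3 kb. Peaks covered more than 50% of the span in 138 clusters (12.4%), and the median was 26.2%. Among the clusters with a G1297 peak there were 89 such clusters (8.67%), and their median was 26.8%.

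Member peaks had scores close to those of the whole MEF list. Their median was 336.9, with quartiles of 168.0 and 777.1, and 348 of the 3946 (8.82%) were in the highest-scoring 10%. MEF peaks outside clusters had a median of 290.1 and 8.34% in the top 10%. In the clusters with a G1297 peak the median was 476.1, and this group was mixed. Its 1708 peaks that overlapped a G1297 peak had a median of 1074, and its 2457 peaks that overlapped none had a median of 295.0. Peaks of clusters without a G1297 peak overlap none by the rule, so this split sorts the other peaks by what selected the clusters. No finding is drawn from it. The median of 336.9 was above the 295.0 of the non-overlapping peaks and below the 1074 of the overlapping ones. The share in the top 10% was 8.82%, against 7.29% of the non-overlapping and 35.1% of the overlapping peaks. Among peaks outside clusters that also lay over 5 kb from a G1297 peak, 15064 in all, the median was 258.0 and 5.18% were in the top 10%.

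At the level of clusters, 299 of the 1110 (26.9%) held at least 1 peak of the top 10%, 43 held 2 and 3 held at least 3. Those 3 lay on chromosomes 14, 15 and 7, the last at chr7:59199089-59210955 with peaks of 2432, 2274 and 1859. At the other end, 108 clusters (9.73%) consisted only of peaks below the median of the list, and 811 (73.1%) had no peak in its top 10%. In 152 clusters (13.7%) every peak was at or above the list's median. Of the clusters with a G1297 peak, 582 (56.7%) held a peak of the top 10%, 37 (3.60%) had only peaks below the median and 169 (16.5%) had none below it. Clusters of equal peak number also differed in level. With 3 peaks, the median top score was 857.4 without and 1756 with a G1297 peak. With 4 peaks it was 1049 and 2003, and with 5 peaks 1299 and 2620. The median spans were 11.7 and 12.4 kb with 3 peaks, 16.57 and 18.05 kb with 4, and 22.4 kb in both with 5.

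The share of clusters without a G1297 peak was lower where the top peak was higher, though not at every step. In 10 equal groups of MEF clusters by top score, it was 76.2%, 72.9%, 67.1% and 56.1% in groups 1 to 4, 63.1% in group 5, 49.3% in group 6 and 45.3% in group 7. Groups 8 to 10 all include the score of 3100, so the boundaries between them are arbitrary. Of all 439 MEF clusters with a top score of 3100 or more, 117 (26.7%) had no G1297 peak.

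**Figure D3:**
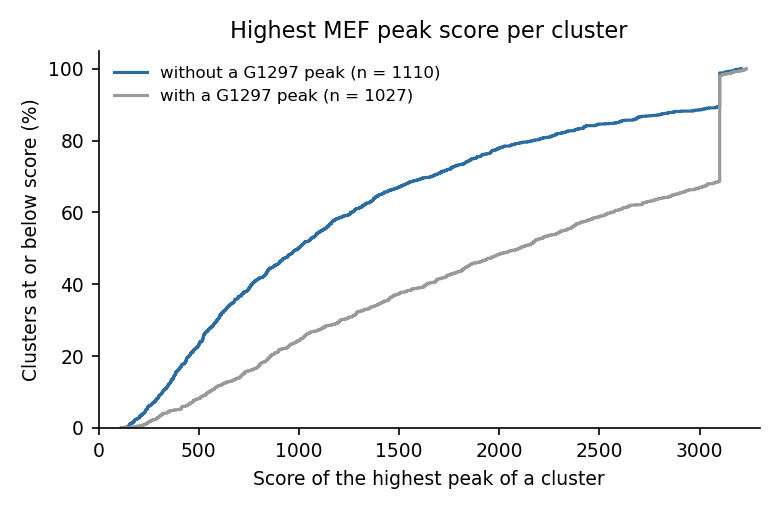
Share of MEF clusters in percent (y axis) whose highest peak has at most the score on the x axis, for clusters without (blue) and with (grey) a G1297 peak. The medians are 997.1 and 2101, and the vertical step marks the many peaks that share the score of 3100.

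The clusters lay at widely varying distances from G1297 binding. The median distance to the nearest G1297 peak was 135.2 kb, and it exceeded 352.3 kb in the farthest 25% of them. No G1297 peak was listed within 100 kb of 638 clusters (57.5%) or within 1 Mb of 63 (5.68%), and the median number within 1 Mb was 7, with 35 at most. Measured from single peaks, the median was 141.35 kb for the peaks of these clusters and 151.5 kb for MEF peaks outside clusters and over 5 kb from a G1297 peak. Only 19 clusters had a G1297 peak nearer than 12.5 kb, and joining contributes to this, since a MEF peak on such a G1297 peak would have been drawn into the cluster. By this construction, none of these 19 nearest G1297 peaks overlapped a MEF peak. Over all 1110 clusters, the nearest G1297 peak overlapped a MEF peak in 746 (67.2%), and 62.8% of all G1297 peaks overlapped one.

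The cluster farthest from any G1297 peak was chr14:93472522-93485404, with 6497 kb to the nearest on its chromosome and peaks of 427.0, 1379 and 106.3. Next came chr3:21721918-21727168 at 5550 kb, chr4:76060023-76071675 at 4314 kb, chr3:13640517-13655161 at 3858 kb and chr17:94400176-94407313 at 2838 kb. Each of these 5 had 3 peaks, and their top scores were between 529.9 and 1379, so none of them was among the leading clusters by score. The nearest outside the margin was chr11:50245427-50253928, at 5293 bp, with peaks of 98.8, 287.4 and 366.0. At chr2:170327781-170335458, in contrast, a cluster of 3 peaks scoring 3100, 796.6 and 3100 lay 6035 bp from a G1297 peak, with 35 G1297 peaks within 1 Mb. The clusters at chr10:82608424-82615665, chr9:120746491-120764314 and chr5:113096838-113109363 followed at 6047, 6261 and 6571 bp, with top scores of 319.0, 233.3 and 337.9.

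Distance and height showed no steady relation across the clusters. The median top score was 892.8 in the 278 clusters under 50 kb from a G1297 peak, 943.5 in the 393 from 50 to 200 kb, 1166 in the 376 from 200 kb to 1 Mb and 841.5 in the 63 beyond 1 Mb. The median number of peaks was 3 in each of these groups, and their median spans were between 13.3 and 14.3 kb.

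**Figure D4:**
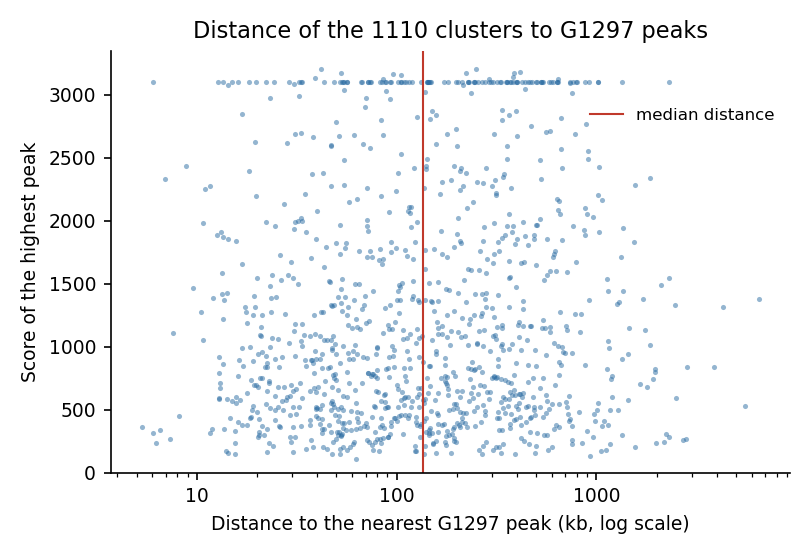
Score of the highest peak (y axis) against the distance to the nearest G1297 peak in kb on a log scale (x axis), 1 point for each of the 1110 clusters; the line marks the median distance of 135.2 kb. Points at 3100 lie at all but the largest distances, and few points lie below 12.5 kb.

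The values at the edges of the rule were close to each other. The widest gap that was joined in a member was 12493 bp, at chr9:84350875-84378356, a cluster of 4 peaks with a top score of 1057. The closest group that was not joined to one lay 12511 bp away, where 2 peaks at chr19:31825611-31831166 with a top score of 406.1 stood beside the 7 peaks of chr19:31843678-31880726. For the margin, the member nearest to a G1297 peak was the one at 5293 bp on chromosome 11, and the cluster left out with the longest distance was chr4:55734998-55747983, which held 6 peaks with a top score of 471.6 and lay 4859 bp from a G1297 peak. In all, 8 clusters were left out through the margin alone, and 1019 overlapped a G1297 peak with their span.

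Members were found on chromosomes 1 to 19 and X, and 1 lay on unplaced sequence. Chromosome 3 had the most, with 98 of its 153 clusters (64.1%), followed by chromosome 2 with 83 of 156 (53.2%) and chromosome 1 with 80 of 155 (51.6%). The lowest shares were on chromosome 15 with 38 of 90 (42.2%), chromosome 13 with 58 of 136 (42.6%) and chromosome 6 with 48 of 110 (43.6%). Chromosomes 14 (64 of 107, 59.8%) and 7 (71 of 121, 58.7%) stood nearest to chromosome 3, and X had 8 of 9. The number of G1297 peaks bears on these shares by the rule's construction. For 1 G1297 peak there were 5.58 MEF peaks on chromosome 14, 4.80 on chromosome 3 and 6.78 on X, against 2.35 on chromosome 6 and 2.68 on chromosome 15, and 3.35 in the whole lists. The shares did not follow this ratio throughout. Chromosome 13 had 3.26 and a low share, and chromosome 17 had 2.75 with 40 of 78 clusters (51.3%). The study reports chromosomal abnormalities in G1297 and a part of such abnormalities in the sarcoma MEF. Copy number did not enter these counts, and its bearing on them was not tested.

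**Figure D5:**
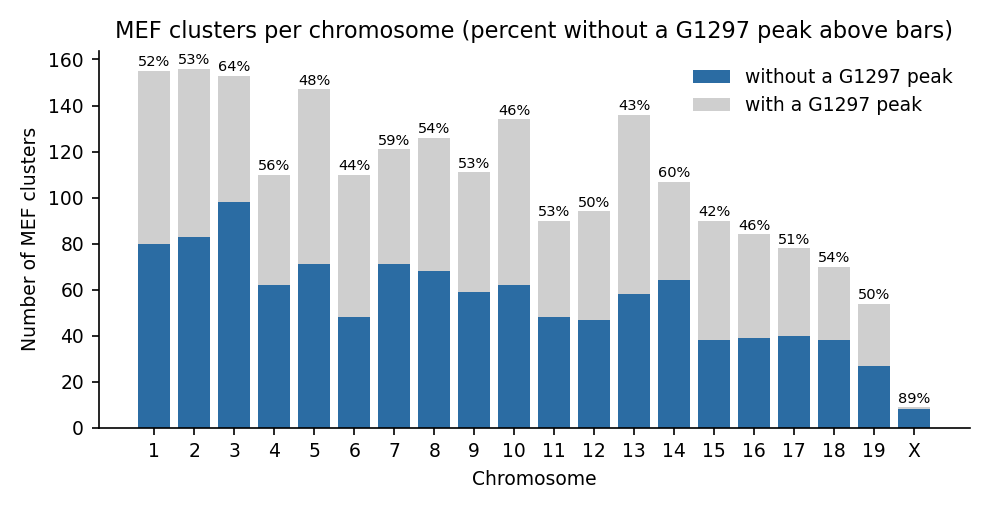
Number of MEF clusters on each chromosome (y axis), divided into clusters without (blue) and with (grey) a G1297 peak, with the percentage without one above each bar. Shares range from 42% on chromosome 15 to 64% on chromosome 3 among the autosomes, and X has 9 clusters in all.

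Clusters without a G1297 peak were also counted by the stretch of chromosome free of G1297 peaks in which they lay. No such share is given over all MEF clusters or peaks, and longer stretches have room for more clusters. Of the 1110, 1096 lay between 2 G1297 peaks, in 802 different intervals free of G1297 peaks, and 495 of them shared their interval with at least 1 other. There were 601 intervals with 1 cluster, 137 with 2 and 64 with at least 3. The median length of these intervals was 0.579 Mb, and their median density was 17.9 MEF peaks per Mb. Each counted interval holds a cluster by construction, which bears on this density. Regions named from here to the end of the paragraph were chosen after their values were seen. The most clusters in an interval were 6, on chromosome 1 in 3.91 Mb with 84 MEF peaks and on chromosome 7 in 7.51 Mb with 69. The densest of the 12 intervals with the most clusters was chr13:51944692-52333098, where 4 clusters and 23 MEF peaks lay in 0.388 Mb, at 59.2 peaks per Mb, and it included the 8-peak cluster at chr13:52091136-52126749.

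Neighbouring clusters were separated by a median of 956.3 kb, and 130 of 1089 neighbouring pairs were less than 100 kb apart. At this distance, 101 chains of 2 clusters, 13 of 3 and 1 of 4 were formed. None of the chains of at least 3 enclosed a G1297 peak. The rule contributes to this, since each member and its margins of 5 kb are free of G1297 peaks by definition. The chains of 2 are not described in this respect, and no share over all MEF clusters is given for pairs or chains. The chain of 4, at chr11:65141468-65319626, held 14 peaks in 178.2 kb, and its clusters had top scores of 113.3, 3100, 2688 and 573.2. The first of these, at chr11:65141468-65155354, had the lowest top score of all members and stood 15.8 kb from one that reached 3100. On chromosome 6 a chain of 3 clusters at chr6:7504326-7610832 had the highest summed score of the chains of at least 3, 14750 over 10 peaks, with top scores of 3176, 3100 and 758.0. On chromosome 5 the 3 clusters of chr5:91035627-91193894 had top scores of 3100, 1414 and 3207, and the cluster at chr5:91304351-91338432 followed 110.5 kb later. These chains were likewise chosen after their values were seen.

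The loci that the study displays differed in whether they held such a cluster. At Setd4 and Cbr1 on chromosome 16, a pair of genes of which Cbr1 encodes a carbonyl reductase, a member lay at chr16:93533903-93545298. Its 3 peaks scored 260.5, 109.2 and 2604, and the last, at chr16:93542100-93545298, was 3199 bp wide and held 87.6% of the summed score. Another member of 3 peaks, with a top score of 904.4, lay 20.2 kb before the first MEF peak of the displayed interval, at chr16:93486795-93496219. The nearest G1297 peaks were 46.8 and 39.6 kb away, respectively. At Cdkn2a and Cdkn2b on chromosome 4, which encode cell cycle inhibitors that rise in senescence, the MEF peak at chr4:88918919-88920308 was joined to no other peak and belonged to no cluster.

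The stretch without G1297 peaks around Cdkn2a and Cdkn2b did hold members. It ran over 2.85 Mb at chr4:87924186-90774899, with 38 MEF peaks, 20 of them in 4 clusters. The closest of these to the Cdkn2a peak was chr4:88684080-88708036, which ended 210.9 kb before it and held 6 peaks with a summed score of 5267. Its top peak, at chr4:88684080-88685632, scored 3100 against 367.5 for the peak at Cdkn2a. A second cluster of 6 peaks at chr4:88637294-88655346, with a top score of 1135, and 1 of 4 peaks at chr4:88573527-88597054, with a top score of 545.2, came before it. These 3 clusters formed a chain of 16 peaks in 134.5 kb. On the other side of the locus, the next member began 7999 kb away.

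The reverse case was less frequent in the lists as deposited, and both shares changed when the MEF list was cut by score to equal length. When G1297 peaks were joined by the same rule, 27 of 403 G1297 clusters (6.70%) held no MEF peak, and they had 5 peaks at most. The MEF list is 3.35 times as long as the G1297 list, so that these shares are not comparable as amounts of binding. With only the 8090 MEF peaks of highest score, equal in number to the G1297 list, 92 of 274 MEF clusters (33.6%) held no G1297 peak, in place of 1110 of 2137, and 109 of 403 G1297 clusters (27.05%) held no MEF peak, in place of 27.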

How the data were processed

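Per the submitters' processing notes, the authors aligned reads to mm9 with Bowtie2 2.2.0 and called peaks with MACS 1.4.2. The score in the deposited lists was computed by the authors from the P value of each peak, and the lists were used as deposited. Which input was used, and whether both G1297 libraries entered the G1297 list, is not given in the sources used here. Read depth is unknown.

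Peaks were joined, filtered and measured in Python 3.11.15 with numpy 2.4.6 and pandas 2.3.3, and the steps were tested on simulated lists. Distances are between edges, and positions are 1-based. Named clusters were the 10 with the most peaks (ties by summed score), the 10 with the highest summed score, the 10 with the highest listed peak score, the 5 farthest from and the 5 nearest to a G1297 peak, those beside each threshold and those at the loci the study displays. Intervals for these loci were read by eye. The members and lists were chosen with earlier results of these data known. Alternatives were other joining gaps, peak minimums, margins, score limits, a MEF list of equal length, and chromosomes X and Y left out. Genes and motifs were not analysed because the reference was of another build, and coordinates were not converted.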

Additional observations from a re-analysis of the deposited data

How the results depend on the processing

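The number of clusters without a G1297 peak, their peaks and their share of all MEF clusters depended on the rule. A joining gap of 5000 bp gave 594 clusters, 1945 peaks and 55.7%. A minimum of 2 peaks gave 3643, 9012 and 63.7%, and a minimum of 4 gave 377, 1747 and 41.2%. With MEF scores of at least 200 there were 480 clusters, 1636 peaks and 43.5%, and with a MEF list of equal length 92, 294 and 33.6%. The share alone left its 95% Wilson interval of 49.8% to 54.1% with a margin of 50000 bp (38.9%) and with G1297 scores of at least 200 (62.9%). With MEF peaks within 1000 bp merged, an alternative chosen after seeing the data, it lay at the lower limit (49.81% against 49.82%), and by this margin alone it is counted as moved below. That interval treats clusters as independent draws, which they are not, and the share is a full count under the rule. It serves only as a limit for calling the share moved and measures no spread between samples. Under a joining gap of 25000 bp (1493 clusters), without a margin, and without X and Y, both counts stayed within 1.5 times and the share within its interval. Of 73 comparisons with the main values, medians of peaks, top score, distance and span included, 49 stayed within these limits and 24 moved. Among the medians, those that moved by over 1.5 times were the span, to 7733 bp with a gap of 5000 bp, 24691 bp with 25000 bp and 7406 bp with at least 2 peaks, from 13934 bp. The top score moved from 997.1 to 642.4 with at least 2 peaks and to 2214 with lists of equal length, and the distance from 135234 to 214860 bp with a margin of 50000 bp. Some of these moves follow from the setting itself, since fewer peaks or shorter gaps form fewer clusters, and further causes were not tested.

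No paired analysis was possible because there is 1 list for G1297 and 1 for the MEFs, with nothing given per library, and no leaving out of replicates was possible either. A region below the threshold in G1297 is not shown to be unbound, and the depth that limits which peaks are called is unknown. The MEFs are represented by 1 ChIP library.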
